A study of Mus musculus with 8 samples.

Results

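The genes examined here handle iron and haem in macrophages. They are 10 genes, Hmox1, Blvrb, Slc40a1, Fth1, Ftl1, Ncoa4, Slc11a1, Slc11a2, Tfrc and Steap3 and they were chosen by gene name, without a threshold on their values. All 10 were measured among 37008 gene names on the array, by 18 of its 56605 probes, and 17 of these probes passed the filter on dim signals, with at least 1 probe for every gene. RNA of peritoneal macrophages was hybridised to 8 one-colour Agilent arrays, 4 from wild-type (wt) mice and 4 from Card9-/- mice. Card9 couples C-type lectin receptors for fungal cell walls to NF-kB signalling. Mice of both genotypes were given 1 ml of 3% thioglycolate, which recruits macrophages to the peritoneum, and cells were harvested 4 days afterwards. Both genotypes also received 500 mg/kg of zymosan, particles of yeast cell wall used to inflame the peritoneum, for 4 h. Red cells were lysed, adherent cells were kept 3 h after seeding, and pellets came from 4 or 5 mice per group. No untreated mice were analysed here, so each comparison is of the genotypes after zymosan. The sources used here give no age of the mice. Whether each array holds RNA of 1 mouse or of a pool is not said in the labels, so p-values measure only the spread between these samples, which may be technical.

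Macrophages take up aged red cells, open the haem ring and return its iron to the blood. Haem oxygenase and biliverdin reductase carry out the breakdown, ferritin stores the released iron, and ferroportin exports it. During infection and inflammation macrophages are known to hold iron back from microbes, and metal transporters of the phagosome take part in this. Transferrin receptor messenger RNA is stabilised when iron is scarce, while ferritin translation is then blocked, so the RNA level of ferritin is only part of its control.

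Levels are given as log2 processed signals relative to the 75th percentile of the same array, so that 0 is that percentile and 1 unit is a 2-fold step. A level of one gene cannot be set against that of another, because each probe binds with its own strength. Differences are Card9-/- minus wt, tested with limma over 18603 genes with Benjamini-Hochberg adjustment, and by an exact two-sided permutation test over the 8 arrays, whose smallest possible p is 0.0286.

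The arrays differed within each genotype. Signal of the deleted gene was above the background limit on 3 of 4 wt arrays and on 0 of 4 from Card9-/- mice, and the library labelled wt replicate 1 had no Card9 signal above background. The libraries labelled wt replicates 1 and 2 were the most alike of all pairs (correlation 0.985 across genes), and whether they are separate samples is not known here, although n = 4 counts both. With them averaged, Slc11a1 moved from -1.24 to -1.92, Blvrb from -0.018 to -0.55 and Steap3 from 0.33 to 0.099, and none of the 10 genes passed the threshold. The log2 of the summed signals of the macrophage markers (9 of 10 tested) was 10.84 and 9.43 in wt replicates 3 and 4 and 5.73 in each of the libraries labelled wt replicates 1 and 2, against 6.72 to 8.18 in Card9-/-. Adgre1, a macrophage surface marker, was at 7.72 and 5.92 in wt replicates 3 and 4, 0.67 and 0.35 in the libraries labelled wt replicates 1 and 2, and 1.62 to 2.42 in Card9-/-. Red cell markers, 12 of 15 tested and 11 of them higher in Card9-/-, summed to 9.16 to 11.58 in wt and 10.44 to 13.00 in Card9-/-, with the highest sum in Card9-/- replicate 4. This list holds Tfrc itself, and its member Klf1 was not well above background on any array. The haem synthesis enzyme of red cell precursors, Alas2, reached 10.22 in Card9-/- replicate 4 and 8.73 in Card9-/- replicate 1. Summed T cell markers (4.24 to 4.89 in wt, 5.28 to 6.61 in Card9-/-) and natural killer cell markers (2.98 to 4.48 and 4.72 to 7.69) were higher on every Card9-/- array, and neutrophil markers overlapped (7.85 to 9.56 and 7.43 to 9.89). Slide 1 held all 4 wt arrays together with Card9-/- replicate 4. The 5 genes past the threshold over the whole array all lie on the sex chromosomes. Of these, 4 on the Y chromosome were higher and 1 on the X chromosome was lower in Card9-/-. The labels do not give the sex of the mice, so the groups may differ in sex as well as in Card9. The part of sex in the results was not tested. In such bulk samples fewer cells of a type and less RNA per cell cannot be told apart, and the part of these marker differences in the results was not tested.

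The sequences behind 2 sets of results are shown first. The ferritin genes are shown because they had the smallest root mean square difference between centred levels among the 10 genes. This measure gives small values to genes of little spread. The 250 bases before their start sites are printed from the RefSeq promoter table on GRCm38.p6, at chr19:9982396-9982645 on the plus strand for Fth1 and at chr7:45459887-45460136 on the minus strand for Ftl1. Capitals mark CCAAT read on the opposite strand, as ATTGG.
Fth1: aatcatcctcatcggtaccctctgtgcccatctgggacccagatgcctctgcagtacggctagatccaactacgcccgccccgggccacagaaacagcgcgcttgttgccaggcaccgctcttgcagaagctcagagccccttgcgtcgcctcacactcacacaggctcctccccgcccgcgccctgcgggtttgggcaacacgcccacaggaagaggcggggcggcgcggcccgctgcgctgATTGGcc
Ftl1: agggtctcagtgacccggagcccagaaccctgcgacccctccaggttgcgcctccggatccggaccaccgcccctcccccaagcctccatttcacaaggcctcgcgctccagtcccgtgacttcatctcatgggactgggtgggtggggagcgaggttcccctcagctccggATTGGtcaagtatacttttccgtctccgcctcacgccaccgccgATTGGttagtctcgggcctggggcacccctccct
Fth1 has 1 such match, 7 bases before the start, and Ftl1 has 2, at 78 and 34 bases before it. The motif was searched as CCAAT on both strands and occurs in 33.8% of all 32851 windows of this length, so its presence is a description and not a sign of control. The table matched 7 of the 10 genes, not Hmox1, Slc40a1 or Slc11a2. In the 15 windows of the 7 matched genes, TGACNNNGC, the core of the antioxidant response element, was found only before Ncoa4, 44 bases from the start. It occurs in 10.2% of all windows, so this too is a description. Sites outside these 250 bases were not searched.

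The other set is a pair of probes that read different transcripts of Slc11a2. The first 30 of their 60 bases are printed in lower case with no part marked, on mm9 and on the minus strand, from the probe at chr15:100218333-100218392 for transcript NM_008732 and from the probe at chr15:100223347-100223406 for transcript NM_001146161.
A_51_P388737: tgctttaatcccaaccagaaataatcatcc
A_52_P196476: tgttccctattcacttgattgtcactgaaa

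None of the 10 genes passed the threshold for a genotype difference (0 of 10 by limma, where 0.0269% of all genes passed). At an unadjusted p under 0.05, 1 of 10 passed, Slc11a2, against 7.22% of all genes, or 4.59% counting only genes lower in Card9-/-. In a fit over single probes 0 of the 17 passed, against 0.0391% of all probes. The groups overlapped in all 10 genes, while 5.22% of all genes had the 4 arrays of one genotype on one side of the other 4. The difference was above 0 in 4 genes and below 0 in 6, while 43.7% of all genes lay above 0. The median was -0.13 beside a median of -0.088 over all genes.

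**Figure D1:**
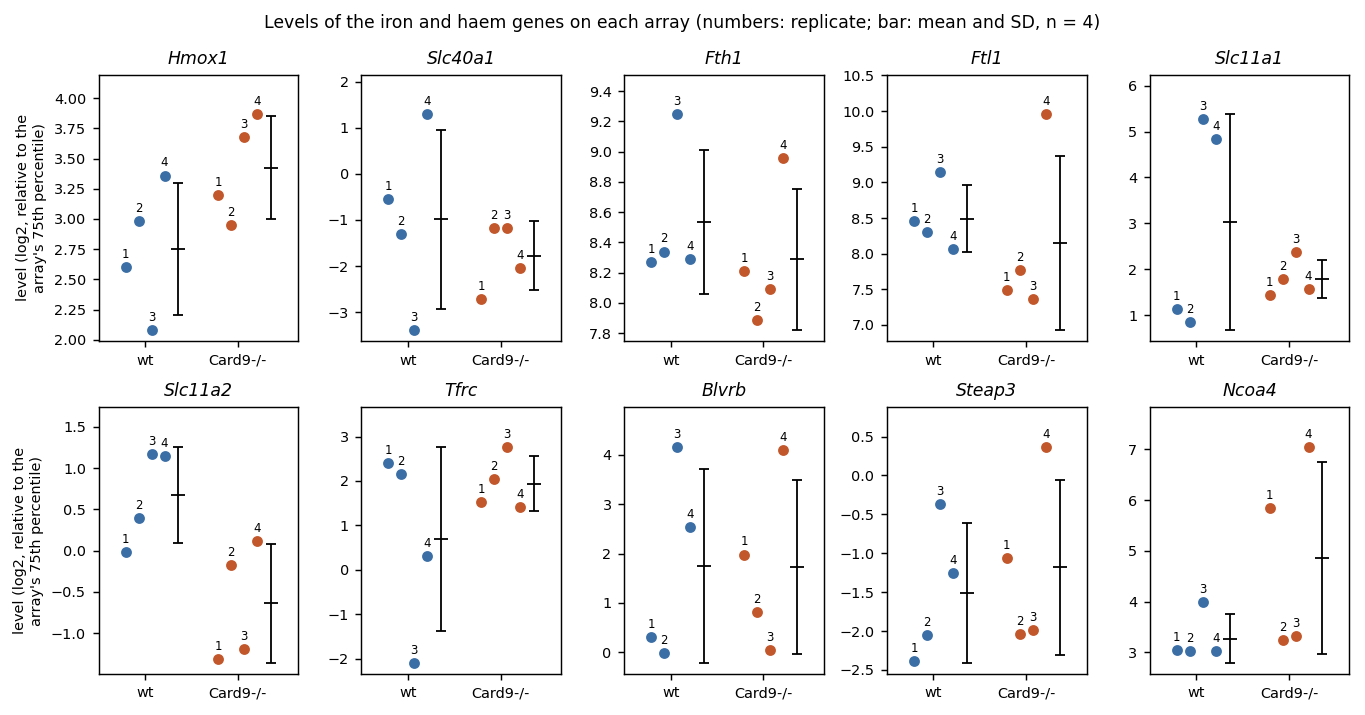
Level of each of the 10 genes on each array (log2 relative to the array's 75th percentile), with wt arrays in blue, Card9-/- arrays in orange, replicate numbers above the points, and bars for the mean and SD (n = 4). Axes differ between genes; wt replicates 3 and 4 stand apart for Slc11a1, and Card9-/- replicates 1 and 4 for Ncoa4.

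Haem breakdown was measured through Hmox1 and Blvrb. Hmox1 encodes haem oxygenase 1, the inducible enzyme that opens haem into biliverdin, carbon monoxide and iron. Its probe (A_55_P2757433, chromosome 8, 77624406 to 77624466, mm9, from base 1489 of NM_010442) gave levels of 2.60, 2.98, 2.08 and 3.36 on the wt arrays and 3.20, 2.95, 3.68 and 3.87 on the Card9-/- arrays. The Card9-/- arrays lay toward the upper end, but wt replicates 2 and 4 were above Card9-/- replicate 2, and wt replicate 4 was also above Card9-/- replicate 1. The mean was 2.76 ± 0.54 (SD, n = 4) for wt and 3.42 ± 0.42 (SD, n = 4) for Card9-/-. The difference of 0.67 (95% confidence interval -0.23 to 1.57) did not pass the threshold (limma adjusted p = 0.787, exact permutation p = 0.143). It stayed above 0 under every alternative tried, from 0.45 without wt replicate 3 to 1.11 on slide 1. A second Hmox1 probe, on the transcript ENSMUST00000160341, was well above background on 2 arrays of each genotype and was not tested.

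Blvrb encodes biliverdin reductase B, an abundant reductase of red cells that reduces biliverdin and flavins. Its levels (probe A_55_P1991585, chromosome 7, 28250944 to 28251000, from base 808 of NM_144923) were 0.32, -0.011, 4.16 and 2.54 in wt and 1.98, 0.82, 0.043 and 4.09 in Card9-/-. It had the widest spread of the 10 genes, an SD of 1.73 over all 8 arrays, with its highest values in wt replicate 3 and Card9-/- replicate 4. The means were 1.75 ± 1.96 and 1.73 ± 1.76 (SD, n = 4 each), and the difference was -0.018 (95% confidence interval -2.48 to 2.44, limma adjusted p = 0.999, exact permutation p = 0.943). The interval spans more than 2 units on either side of 0, so a genotype difference of several-fold in either direction was not detectable with these arrays. The sign turned with the arrays used. The difference was -0.80 without Card9-/- replicate 4, 0.78 without wt replicate 3, 0.24 without wt replicate 4, 0.29 and 0.55 without Card9-/- replicates 2 and 3, and 1.58 with wt replicates 3 and 4 left out together. On slide 1, where Card9-/- replicate 4 was the only Card9-/- array, it was 2.34. The arrays high for Blvrb were those with the highest summed macrophage markers (10.84 in wt replicate 3) and the highest summed red cell markers (13.00 in Card9-/- replicate 4). Neither sum followed Blvrb on all arrays. The red cell sum was 11.58 in the library labelled wt replicate 1, where Blvrb was at 0.32. The macrophage sum was 7.77 in Card9-/- replicate 3 and 6.72 in Card9-/- replicate 1, where Blvrb was at 0.043 and 1.98.

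Iron export was measured through Slc40a1, which encodes ferroportin, the iron exporter of the cell surface. Its brighter probe (A_51_P389988, chromosome 1, 45965255 to 45965314, from base 2980 of NM_016917) gave -0.54, -1.31, -3.39 and 1.30 in wt and -2.72, -1.17, -1.17 and -2.04 in Card9-/-. Both the highest and the lowest level were in wt, in replicates 4 and 3, and the 4 Card9-/- values lay between them. The mean was -0.99 ± 1.94 (SD, n = 4) for wt and -1.78 ± 0.75 (SD, n = 4) for Card9-/-. The difference of -0.79 (95% confidence interval -2.77 to 1.19) did not pass the threshold (limma adjusted p = 0.892, exact permutation p = 0.543). It depended on single arrays, being -1.59 without wt replicate 3 and -0.029 without wt replicate 4, and it was -1.06 on slide 1. The dimmer probe (A_55_P2620111, on ENSMUST00000186755) reached the background limit on 3 wt arrays but 0 from Card9-/- mice. It was brightest in wt replicate 4 (-2.01), and in wt replicate 3 it lay below the background limit of that array, so it gives no measured difference. The macrophage marker sum was high on both of these wt arrays (10.84 and 9.43), so Slc40a1 and these markers had their extremes in different directions in wt replicate 3.

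Iron storage was measured through Fth1 and Ftl1, the heavy and light chains of ferritin, and through Ncoa4, the cargo receptor that delivers ferritin to the lysosome for iron release. Fth1 (probe A_52_P49601, chromosome 19, 10059485 to 10059544, from base 825 of NM_010239) was at 8.27, 8.34, 9.25 and 8.29 in wt and 8.21, 7.89, 8.09 and 8.96 in Card9-/-. It varied least of the 10 genes (SD 0.46 over 8 arrays), and wt replicate 3 and Card9-/- replicate 4 stood above the rest. The mean was 8.54 ± 0.47 (SD, n = 4) for wt and 8.29 ± 0.47 (SD, n = 4) for Card9-/-, with a difference of -0.25 (95% confidence interval -1.14 to 0.64, limma adjusted p = 0.930, exact permutation p = 0.457). It ranged from -0.47 without Card9-/- replicate 4 to -0.014 without wt replicate 3, and on slide 1 it was 0.42.

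Ftl1 (probe A_55_P2851873, chromosome 7, 52713318 to 52713377, from base 906 of NM_010240) was at 8.46, 8.30, 9.15 and 8.06 in wt and 7.49, 7.77, 7.37 and 9.96 in Card9-/-. Card9-/- replicates 1, 2 and 3 lay below every wt array, and Card9-/- replicate 4 lay above every wt array. The difference of means, 8.49 ± 0.47 and 8.15 ± 1.22 (SD, n = 4 each), was -0.34 (95% confidence interval -1.69 to 1.00, limma adjusted p = 0.938, exact permutation p = 0.600). Without Card9-/- replicate 3 it was -0.085, without Card9-/- replicate 4 it was -0.95 with a limma adjusted p of 0.424, and on slide 1, which holds that Card9-/- array alone, it was 1.47. The dimmer Ftl1 probe (A_55_P1983959, from base 462) gave 5.37, 5.10, 7.20 and 6.28 in wt and 5.99, 5.21, 5.47 and 6.85 in Card9-/-, a difference of -0.11, and here the other 3 Card9-/- arrays did not lie below wt. Ferritin genes have near-identical copies in the mouse genome, so which copies these probes read is uncertain.

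Ncoa4 had the largest difference above 0. Its brighter probe (A_55_P2742356, chromosome 14, 32992281 to 32992340, from base 3282 of NM_001033988) gave 3.05, 3.02, 3.99 and 3.03 in wt and 5.84, 3.25, 3.33 and 7.05 in Card9-/-. Card9-/- replicates 1 and 4 were far above all wt arrays, while Card9-/- replicates 2 and 3 lay within the wt range. The mean was 3.27 ± 0.48 (SD, n = 4) for wt and 4.87 ± 1.89 (SD, n = 4) for Card9-/-, a difference of 1.60, or 3.02-fold (95% confidence interval -0.27 to 3.47 log2 units), that did not pass (limma unadjusted p = 0.0858, adjusted p = 0.748, exact permutation p = 0.171). The other probe (A_52_P443427, from base 3125) showed the same arrays high, with 2.59, 2.28, 2.87 and 2.39 in wt and 4.93, 2.61, 2.46 and 6.45 in Card9-/-, and a difference of 1.58. Without Card9-/- replicate 4 the difference was 0.87, and on slide 1 it was 3.78. Slc4a1, the anion exchanger of red cells, was highest on the same 2 arrays. It was at 4.13 and 5.67 in Card9-/- replicates 1 and 4 and between -3.32 and 1.34 elsewhere. Slc4a1 is 1 of the 12 tested red cell markers and was not picked by a rule. The sum of these markers was highest in Card9-/- replicate 4 alone. In Card9-/- replicate 1 this sum was 11.08, below 11.58 in the library labelled wt replicate 1 and 11.51 in wt replicate 3.

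Metal transport out of phagosomes and endosomes was measured through Slc11a1 and Slc11a2. Slc11a1 encodes Nramp1, a divalent metal transporter of the phagosome membrane in macrophages and neutrophils. Its levels (probe A_51_P186476, chromosome 1, 74432161 to 74432220, from base 1839 of NM_013612) were 1.14, 0.85, 5.28 and 4.84 in wt and 1.43, 1.78, 2.38 and 1.56 in Card9-/-. The wt arrays fell into a low pair and a high pair, with all Card9-/- arrays between them. The mean was 3.03 ± 2.36 (SD, n = 4) for wt and 1.79 ± 0.42 (SD, n = 4) for Card9-/-, and the difference of -1.24 (95% confidence interval -3.49 to 1.01) did not pass (limma adjusted p = 0.852, exact permutation p = 0.429). The high pair was wt replicates 3 and 4, the arrays with the highest macrophage marker sums. It was -0.49 without wt replicate 3 and -0.63 without wt replicate 4. With both left out the difference was 0.79 (limma adjusted p = 0.418), and on slide 1 it was -1.46. Its direction therefore differed with these 2 arrays, and the part of the macrophage markers in it was not tested.

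Slc11a2 encodes DMT1, which moves ferrous iron out of endosomes, and it had the largest difference below 0. The brightest of its 4 probes (A_55_P2830119, chromosome 15, 100219212 to 100219271, from base 2082 of NM_008732) gave -0.017, 0.39, 1.17 and 1.15 in wt and -1.32, -0.17, -1.19 and 0.12 in Card9-/-. Card9-/- replicates 1, 2 and 3 were below every wt array, and Card9-/- replicate 4 was above only the library labelled wt replicate 1. The mean was 0.67 ± 0.59 (SD, n = 4) for wt and -0.64 ± 0.72 (SD, n = 4) for Card9-/-. The difference of -1.32, or 2.49-fold lower in Card9-/- (95% confidence interval -2.38 to -0.25 log2 units), had an unadjusted limma p of 0.0204, a limma adjusted p of 0.593 and an exact permutation p of 0.0571, so it did not pass. It stayed below 0 under every alternative tried, from -1.57 without Card9-/- replicate 4 to -0.56 on slide 1. The limma adjusted p ranged from 0.0599 with array weights to 0.958. With array weights 1585 genes passed over the whole array. The libraries labelled wt replicates 1 and 2, which may not be separate samples, had weights of 3.26 and 9.17. The other arrays had weights of 0.186 to 1.74. With wt replicates 3 and 4 left out the difference was -0.83.

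The 4 Slc11a2 probes all gave differences below 0, from -1.58 to -0.40. The NM_008732 probe whose first bases are printed above (A_51_P388737, from base 2961) gave 0.33, 0.38, 0.62 and 0.030 in wt and -0.47, -0.19, -0.54 and -0.34 in Card9-/-. Every Card9-/- array lay below every wt array, as in 3.36% of the 28166 probes, with a difference of -0.72 (limma adjusted p = 0.723 over all probes, exact permutation p = 0.0286, the smallest possible). Unlike the other probes, it varied little within each genotype (SD 0.24 in wt and 0.15 in Card9-/-). This probe was singled out after its values were seen. The NM_001146161 probe (A_52_P196476, from base 4055) gave -2.59, -2.73, 0.76 and -0.15 in wt and -2.17, -3.28, -2.59 and -3.02 in Card9-/-. It was high in wt replicates 3 and 4 alone, and its difference was -1.58 (limma adjusted p = 0.758 over all probes, exact permutation p = 0.200). The remaining probe (A_52_P254298, from base 253, at the chromosome 15 position 100240516 to 100240575) is listed in the scanner files for both transcripts and gave a difference of -0.40 (exact permutation p = 0.514). Slc11a2 is known to be made as transcripts with and without an iron responsive element, and which of these each probe reads was not analysed here. The genotype difference of the NM_001146161 probe and that of A_51_P388737 differed by -0.87, which was not told apart from 0 (exact permutation p = 0.400).

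**Figure D2:**
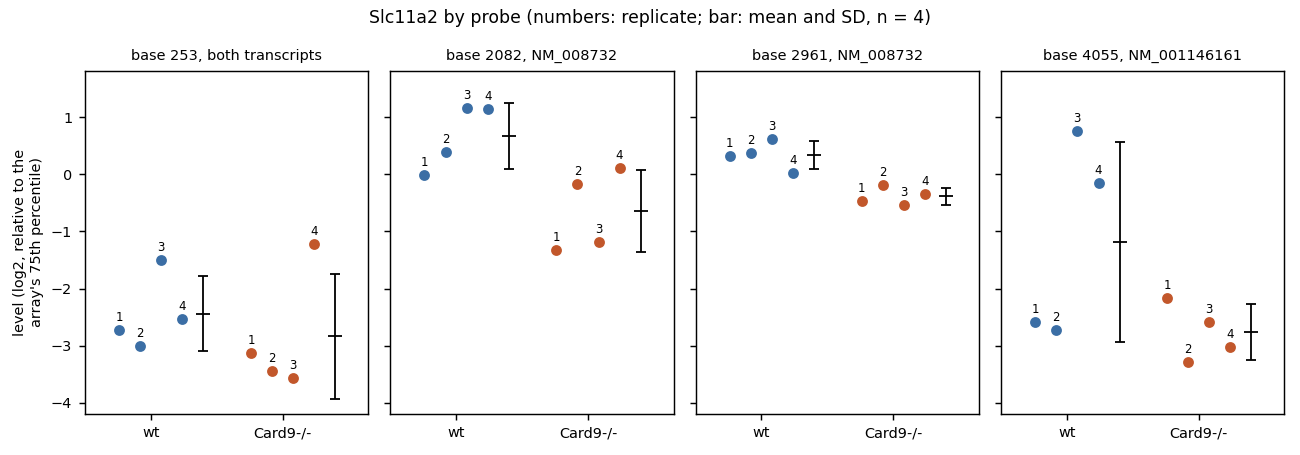
Level of each of the 4 Slc11a2 probes on each array (log2 relative to the array's 75th percentile), titled by the transcript base where the probe starts and the transcript it reads; points are arrays with their replicate numbers, and bars are the mean and SD (n = 4). Only the probe at base 2961 separates the genotypes, and the probe at base 4055 is high in wt replicates 3 and 4.

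Iron uptake was measured through Tfrc and Steap3. Tfrc encodes transferrin receptor 1, which brings transferrin-bound iron into endosomes. Its brighter probe (A_52_P228236, chromosome 16, 32632255 to 32632314, from base 4288 of NM_011638) gave 2.40, 2.15, -2.10 and 0.32 in wt and 1.52, 2.05, 2.76 and 1.42 in Card9-/-. The libraries labelled wt replicates 1 and 2 lay within the Card9-/- range, and wt replicates 3 and 4 lay below every Card9-/- array. The mean was 0.69 ± 2.08 (SD, n = 4) for wt and 1.94 ± 0.61 (SD, n = 4) for Card9-/-, a difference of 1.24 (95% confidence interval -0.81 to 3.30) that did not pass (limma adjusted p = 0.835, exact permutation p = 0.343). Without wt replicate 3 it was 0.31, with wt replicates 3 and 4 left out it was -0.34, and on slide 1 it was 0.72. The second probe (A_65_P06446, from base 1228) was also lowest in wt replicates 3 and 4 (-1.09 and -0.39), but its Card9-/- value in replicate 1, -0.13, lay near them, and its difference was 0.47. Tfrc was thus low on the 2 arrays where Slc11a1 was high.

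Steap3 encodes the endosomal reductase that turns ferric into ferrous iron before DMT1 carries it out. Its levels (probe A_55_P2096887, chromosome 1, 122123244 to 122123303, from base 2817 of NM_001085409) were -2.38, -2.05, -0.37 and -1.25 in wt and -1.06, -2.04, -1.99 and 0.37 in Card9-/-. As for Fth1, Ftl1 and Blvrb, wt replicate 3 and Card9-/- replicate 4 were the highest of their genotype. The means were -1.51 ± 0.89 and -1.18 ± 1.13 (SD, n = 4 each), and the difference of 0.33 (95% confidence interval -1.12 to 1.78) did not pass (limma adjusted p = 0.949, exact permutation p = 0.600). It turned to -0.18 without Card9-/- replicate 4, was 0.045 without the library labelled wt replicate 1 and 0.71 without wt replicate 3, and was 1.88 on slide 1.

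**Figure D3:**
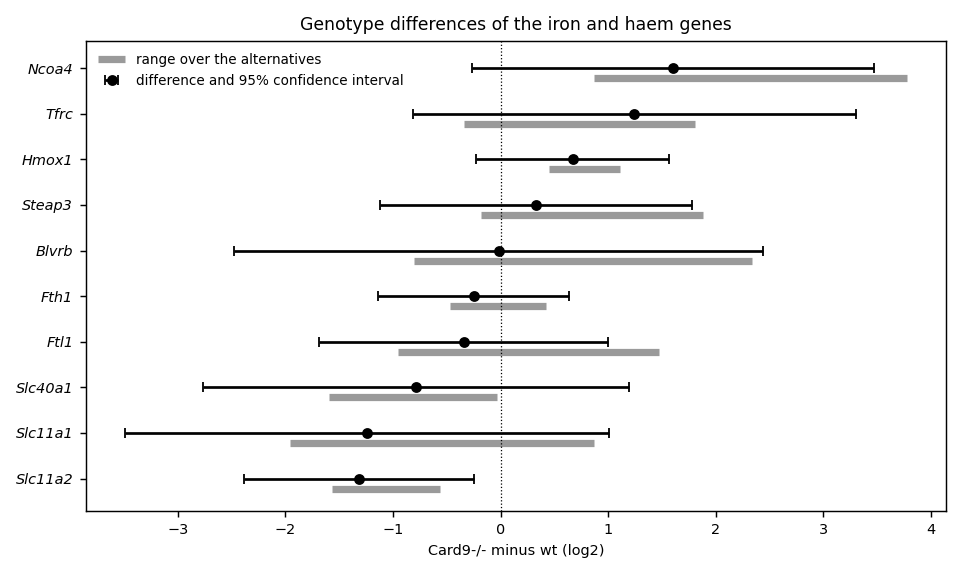
Difference of each gene (Card9-/- minus wt, log2) with its 95% confidence interval in black, and the range over the alternative analyses as a grey bar. The Slc11a2 interval alone lies to one side of 0, and the grey bars of Hmox1, Ncoa4, Slc40a1 and Slc11a2 do not cross 0.

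Across the 10 genes, 2 arrays held most of the extremes. wt replicate 3 was the highest array for Fth1, Slc11a1, Slc11a2 and Blvrb and the lowest for Hmox1, Slc40a1 and Tfrc. Card9-/- replicate 4 was the highest for Hmox1, Ftl1, Steap3 and Ncoa4 and the lowest for none. The widest spreads over all arrays after Blvrb were those of Slc11a1 (SD 1.70), Tfrc (1.57), Ncoa4 (1.53) and Slc40a1 (1.43). Steap3 (0.96), Slc11a2 (0.93), Ftl1 (0.87) and Hmox1 (0.58) varied less.

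**Figure D4:**
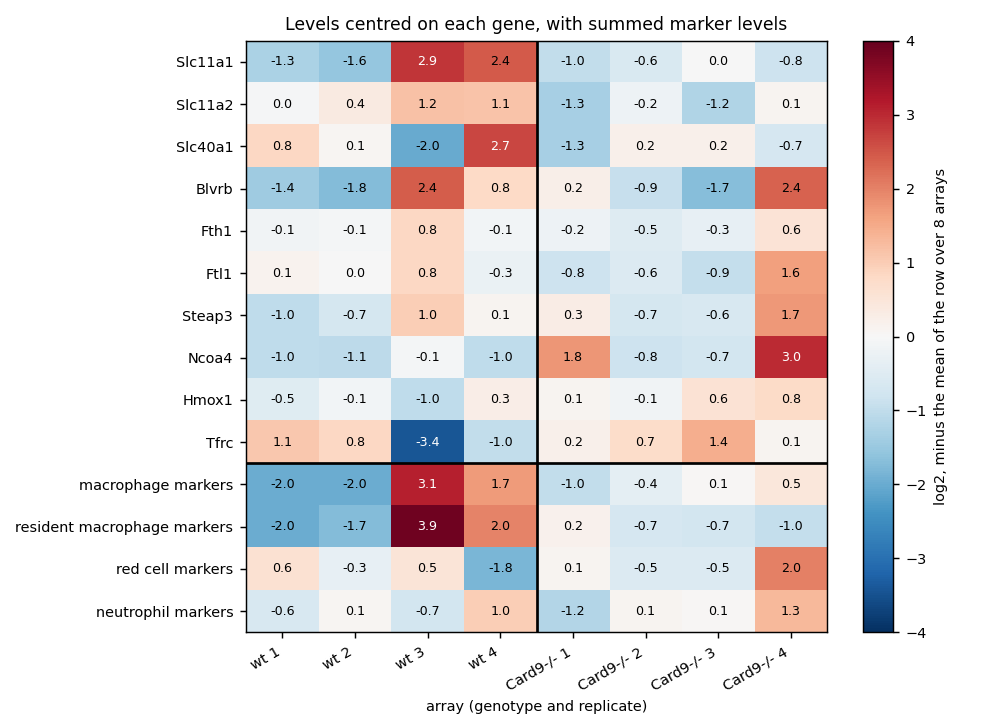
Level of each gene on each array minus its mean over the 8 arrays (log2, red above and blue below), with the summed levels of 4 marker lists in the lower rows treated in the same way. Slc11a1 is high and Tfrc low on wt replicates 3 and 4, where both macrophage marker rows are high, and Ncoa4, Ftl1, Steap3 and Blvrb are high on Card9-/- replicate 4, where the red cell row is highest.

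Likeness of pattern was measured as the root mean square difference between levels centred on each gene, over 8 arrays and 10530 named genes above background on all of them. Pairs of genes with little spread get small values whatever their pattern, and genes on shared arrays are not independent. Among the 10 genes the closest pair by this measure was Fth1 and Ftl1 (0.51 log2 units), followed by Fth1 and Steap3 (0.61). By Pearson correlation Blvrb and Steap3 were more alike (0.95, against 0.84 for Fth1 and Ftl1). Over the array, the patterns most like those of the 3 genes of widest spread were as follows. Blvrb was nearest to Wipi1 (0.45), Tifa (0.50) and Sord (0.53), which were all highest in wt replicate 3. Slc11a1 was nearest to Ptpre (0.33), Tgm2 (0.34) and Adssl1 (0.36), all high in wt replicates 3 and 4, with Tgm2 at 6.13 and 6.04 there and at 2.22 and 1.73 in the libraries labelled wt replicates 1 and 2. Among the nearest to Tfrc were Ptbp2 (0.31) and Tcf12 (0.36), both lowest in wt replicate 3.

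The neighbours of 3 further genes were picked out after their values were seen. Slc40a1 was nearest to Mx1 (0.50), Herc6 (0.59) and Ifit1bl2 (0.60). Mx1 is a well-known interferon-stimulated gene, and its levels of 2.99, 3.38, 0.74 and 4.62 in wt and 1.75, 2.77, 3.69 and 2.21 in Card9-/- share the high value of wt replicate 4 and the low value of wt replicate 3. Steap3 was nearest to Atpif1 (0.22), which was highest in wt replicate 3 and Card9-/- replicate 4 (5.99 and 6.06). Ncoa4 was nearest to Rab3il1 (0.20), Lig1 (0.27) and Prxl2a (0.29), each highest in Card9-/- replicates 4 and 1.

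The other genes of the pathway were taken from 8 lists, and 70 of their 85 genes were tested. None passed the threshold (0 of 70 by limma, against 0.0269% of all genes), and 2 had an unadjusted p under 0.05, Slc39a14 and Mafg, against 7.22% of all genes. The difference was above 0 in 28 genes and below 0 in 42, with a median of -0.22, while 43.7% of all genes lay above 0. These counts turned with 2 arrays: without wt replicates 3 and 4 they were 53 above and 17 below, with a median of 0.53, beside a median of -0.087 over all genes.

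Of the haem synthesis genes all 10 were tested, 8 lay above 0 and 2 below, with a median of 0.34. Fech, which inserts iron into the haem ring, was at 4.75, 2.73, 5.40 and 1.47 in wt and 7.49, 3.62, 3.64 and 8.37 in Card9-/- (difference 2.19, limma adjusted p = 0.778, and 1.33 without Card9-/- replicate 4). Ppox, an earlier step of the pathway, gave 0.60 (limma adjusted p = 0.785). As with Ncoa4, the high Fech arrays were Card9-/- replicates 1 and 4, where Alas2 and Slc4a1 were highest too. The summed red cell markers were not high in Card9-/- replicate 1 (11.08, against 11.58 in the library labelled wt replicate 1). Of the haem transport and breakdown genes, 5 of 9 lay above 0 (median 0.11), with Abcg2, a haem and porphyrin exporter, at 1.33 and Pgrmc1, a haem-binding membrane protein, at 0.57. Without Card9-/- replicate 4 they were at 0.82 and 0.87, and Pgrmc1 was at 0.37 without Card9-/- replicate 3.

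Slc25a37, the mitochondrial iron importer mitoferrin 1, belongs to the iron transport and reduction list, in which 3 of 8 lay above 0 (median -0.14). Its brightest probe was at 5.21, 3.84, 5.16 and 3.61 in wt and 7.65, 4.27, 4.74 and 8.32 in Card9-/- (difference 1.79, limma adjusted p = 0.745). The mean of its probes gave a difference of 0.024, so the probes disagreed, and without Card9-/- replicate 4 it was 1.10. Slc39a14, which encodes the metal importer ZIP14, was at -0.29, -0.19, 1.32 and 1.07 in wt and -0.94, -0.68, -0.30 and -1.05 in Card9-/-. Every Card9-/- array lay below every wt array, as in 3.69% of all genes, but the closest wt and Card9-/- values, -0.29 and -0.30, nearly touched. Its difference was -1.22 (limma unadjusted p = 0.0259, adjusted p = 0.614), and -0.51 without wt replicates 3 and 4. Iron sulphur cluster assembly genes were evenly split, 5 above and 5 below 0. Isca1, a late-acting assembly factor, gave 1.97 and was high in Card9-/- replicates 1 and 4 (7.04 and 8.06, against 2.46 to 4.81 elsewhere). It was at 1.12 with the mean of its probes and 1.21 without Card9-/- replicate 4. Glrx5, a mitochondrial glutaredoxin of the same pathway, gave 1.25, with 4.65 and 5.51 on those arrays against 2.26 to 3.25, and 0.78 without Card9-/- replicate 4.

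The list of capture from outside the cell had 6 of 7 tested genes below 0 (median -0.56). Cd163, the macrophage receptor for haptoglobin-bound haemoglobin, was brightest in wt replicate 3 (0.56) and was above background on 3 wt arrays and 1 Card9-/- array. Its difference of -1.83 (limma adjusted p = 0.775) therefore rests on levels near background, and it was -0.43 with normexp background correction and -0.80 without wt replicate 3. Hpx, the haem-binding plasma protein haemopexin, was above background on 2 wt and 3 Card9-/- arrays, so its difference of 1.18 (0.59 without wt replicate 3) rests on such levels too. Without wt replicates 3 and 4 this list had 6 of 7 above 0. Iron sensing and systemic control had 6 of 7 below 0 (median -0.58), with Fbxl5, an iron-sensing ubiquitin ligase subunit, at -0.77 and Smad7, an inhibitor of BMP signalling, at -1.11. Fbxl5 was at -0.18 with the mean of its probes, -0.42 without wt replicate 4 and -0.29 without wt replicates 3 and 4, and Smad7 was at -0.60 without Card9-/- replicate 3 and at -0.62 with normexp background correction. This was the one list of the 8 with more genes below than above 0 also without wt replicates 3 and 4 (5 of 7).

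In the list of Nrf2, Bach1 and Spic regulation with Nrf2 targets 7 of 11 lay below 0 (median -0.23). Mafg, a small Maf protein that partners Nrf2 and Bach1, was at 4.63, 4.71, 5.52 and 4.75 in wt and 3.89, 4.20, 4.42 and 3.70 in Card9-/-. All Card9-/- arrays lay below all wt arrays, as in 3.69% of all genes, with a difference of -0.85 (limma unadjusted p = 0.0414, adjusted p = 0.670). The Mafg difference was -0.43 with quantile normalization, -0.50 with array weights and -0.61 without wt replicates 3 and 4. Txnrd1, thioredoxin reductase 1, gave -0.82, and -0.34 without wt replicates 3 and 4. Spic, the transcription factor of iron-recycling macrophages, was at -4.35 to -2.76 on 7 arrays and at 0.43 in Card9-/- replicate 4, and it was picked out after its values were seen. In the ferroptosis list 7 of 8 lay below 0 (median -0.43), with Aifm2, a lipid peroxide suppressor, at -1.42 and Sat1, a polyamine catabolic enzyme, at -0.60. Without wt replicate 3 they were at -0.54 and -0.22. Without wt replicates 3 and 4 the list had 7 of 8 above 0.

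**Figure D5:**
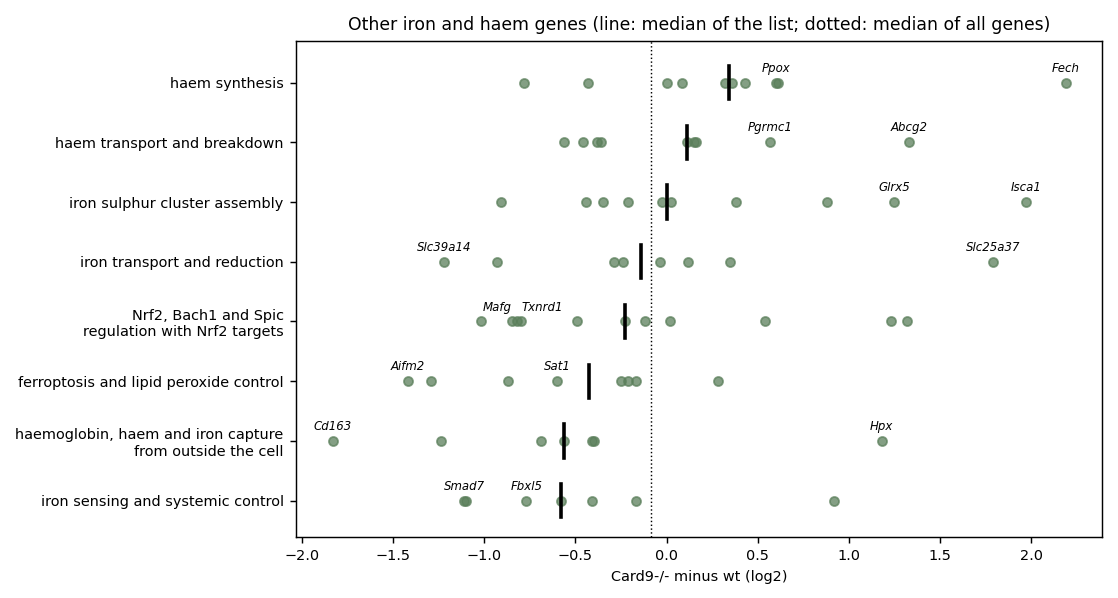
Differences of the 70 tested pathway genes (Card9-/- minus wt, log2), 1 point per gene in 8 lists, with a bar at each list's median, a dotted line at the median of all genes (-0.088), and the genes chosen by the naming rule labelled. List medians run from -0.58 for iron sensing to 0.34 for haem synthesis, and none of these genes passed the threshold.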

How the data were processed

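RNA (0.2 µg per array) was labelled with Cy3 and hybridised to 8 one-colour arrays. Spot intensity was deposited as scanner output. Its values were extracted with Agilent Feature Extraction 10.7.1.1, per the file headers, which also corrected them for background but did not scale arrays to each other. Coordinates are on mm9. The authors' series matrix holds log2 values with the same median, 4.48, in every column. After its row 49670 the other 7075 of 56745 were shifted by 1 probe, so it served as an alternative only, without these. All 8 of its columns were closest to a scanner file of their own genotype, but only 2 to that of their own replicate number, so replicate numbers differ between both sources, and those of the scanner files are used.

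Here the processed signal was taken to log2, each array's 75th percentile over 59305 spots without controls was subtracted, outlier spots were left out and spots of a probe were averaged. A probe was kept if 3 or more of 4 arrays of a genotype were well above background (28166), and the probe with the highest mean stood for a gene (18603 genes). Between 47.8% and 56.5% of spots per array were well above background and 0 were saturated. The number of arrays limits the precision. Differences were tested with limma 3.58.1 (R 4.3.3), with empirical Bayes moderation and Benjamini-Hochberg adjustment at 0.05, two-sided, and with exact permutation tests over 70 assignments. The fit was tested on simulated data with independent noise for each gene and array. Arrays that share patterns, as here, were not simulated.

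The genes, the pathway lists and the marker lists were chosen with earlier results of these data known. The 2 genes with the smallest p of each pathway list were named, and the neighbours of the 3 genes of widest spread, of which some are not reported here. The alternatives were normexp background correction, median scaling, quantile normalization, no filter or a filter on all 8 arrays, the mean of a gene's probes, the series matrix, a replicate or slide block, slide 1 alone, array weights, wt replicates 1 and 2 averaged, and each array left out. Leaving out wt replicates 3 and 4 together, with or without Card9-/- replicate 4, was added after seeing the data.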

Additional observations from a re-analysis of the deposited data

Results flagged for a closer look

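Of 52 groups of 4 arrays examined (26 genes in 2 genotypes), 6 held an array far from the other 3. The rule flags about 1 in 20 independent groups of normally distributed values. These groups share the same 8 arrays, and the pathway genes among them were chosen by p, so the count cannot be set against that rate. The level of Fth1 was 9.25 in wt replicate 3, against 8.27 to 8.34 in the other wt arrays. The level of Ncoa4 was 3.99 in wt replicate 3, against 3.02 to 3.05. The same array held Mafg at 5.52, against 4.63 to 4.75, and Smad7 at -0.98, against 0.088 to 0.25. Ftl1 was at 9.96 in Card9-/- replicate 4, against 7.37 to 7.77 in the other Card9-/- arrays. Glrx5 was at 2.26 in wt replicate 4, against 2.97 to 3.09.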

How the results depend on the processing

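No alternative brought any of the 10 genes past the threshold. Hmox1, Slc40a1, Slc11a2 and Ncoa4 kept their direction under all of them. On slide 1, which gave the same values as the slide block because only it held both genotypes, Fth1 turned to 0.42, Ftl1 to 1.47, Blvrb to 2.34, Pgrmc1 to -0.32 and Smad7 to 0.065. Quantile normalization and the series matrix each gave 0.24 for Blvrb. With array weights Slc11a1 was 0.86, Blvrb 0.74, Sat1 0.032 and Cd163 0.037. Leaving out 1 array in turn moved Blvrb between -0.80 and 0.78 and Steap3 between -0.18 and 0.71. With wt replicates 3 and 4 left out, Slc11a1 was 0.79, Tfrc -0.34, Blvrb 1.58, Aifm2 0.058 and Sat1 0.18. With Card9-/- replicate 4 left out as well they were 0.87, -0.17, 0.79, 0.28 and 0.23, and Hpx was -0.14. The cause was not tested.

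Over all genes, 4 were higher and 1 lower in Card9-/-. Median scaling, the series matrix and each omission that included wt replicate 3 gave 2 lower. The filter on all 8 arrays, the slide block and slide 1 gave 0 in both directions. Array weights gave 555 higher and 1030 lower. The algorithm for these weights was changed after seeing the data, because the first did not converge. The replicate block gave 0 lower and 3 higher. Replicate numbers did not pair the samples (correlations of same-numbered arrays -0.13, 0.25, -0.12 and -0.28), and replicate 2 alone correlated best with its own number. The median of all genes moved by -0.18 with median scaling, 0.077 with quantile normalization, 0.12 with normexp, -0.17 with the slide block and 0.40 with no filter. Dim probes limit Slc40a1, the second Hmox1 probe, Cd163 and Hpx, since levels below about -3.47 to -4.84, depending on the array, were not above background.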
